A study of Mus musculus with 3 samples.

Results

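The voltage-gated sodium, calcium and HCN channel genes were examined in enteric neurons of the small intestine of *Ednrb*-/- mice, a model of Hirschsprung disease. A gene was a member if its whole symbol was that of a sodium channel alpha or beta subunit (Scn with a number and a or b), began with *Cacna*, *Cacnb* or *Cacng*, or was that of an HCN channel. This rule used names only and took 44 of the 33353 listed genes: 10 sodium channel alpha, 4 sodium channel beta, 10 calcium channel alpha1, 4 alpha2delta, 4 beta, 8 gamma and 4 HCN genes. At least 1 UMI (unique molecular identifier, a tag that marks 1 captured RNA molecule) was found for 41 of them, with 25996 UMIs in all. ScRNA-seq was performed on tdTomato-positive cells of 3 *Ednrb*-KO mice at postnatal day 14, with 1 library per mouse. The mice are labelled C57BL/6 and were bred from stocks that include mixed backgrounds. The reporter was driven by *Wnt1*-Cre, which marks neural crest derivatives, and the cells came from the longitudinal muscle with the myenteric plexus. All mice carried the same genotype and reporter, so the comparisons are between groups of neurons within the same animals and say nothing of the effect of *Ednrb*.

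Cells were grouped by 1 UMI or more of a marker gene. The 962 *Nos1*-only cells had *Nos1*, which encodes neuronal nitric oxide synthase, and no *Chat*. The 277 *Chat*-only cells had *Chat*, the enzyme of acetylcholine synthesis, and no *Nos1*. The 332 *Bnc2*-only and 1075 *Etv1*-only cells had 1 of these transcription factor genes and not the other. The 200 *Nmu*-positive cells had a UMI of *Nmu*, which encodes the neuropeptide neuromedin U, and the 1088 *Sox10*-positive cells had a UMI of *Sox10*, a transcription factor of neural crest and enteric glia. These groups share cells. Of the *Nos1*-only cells, 77.8% were also *Etv1*-only, and of the *Chat*-only cells, 47.3% were also *Bnc2*-only, so the first 2 comparisons below are not separate evidence.

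Sodium channel alpha subunits form the pore that carries the rising phase of the action potential, and beta subunits set its gating and place in the membrane. Calcium channels have a pore-forming alpha1 subunit, which sets the type (L, P/Q, N, R or T), and the alpha2delta and beta subunits bring it to the membrane. In enteric neurons N-, P/Q- and R-type channels feed transmitter release, and a long calcium-dependent after-hyperpolarization marks the intrinsic sensory neurons. HCN channels open on hyperpolarization, carry the pacemaker current and are known from those sensory neurons.

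Several of the sodium channel genes are neighbours in the genome. On chromosome 2 (GRCm38), *Scn3a* lies at 65457118 to 65567627, *Scn2a* at 65620771 to 65767447, *Scn1a* at 66270778 to 66440840, *Scn9a* at 66480080 to 66634962 and *Scn7a* at 66673425 to 66784914. *Scn9a* and *Scn7a* are separated by 38463 bases with 0 other protein-coding genes between them. On chromosome 9, *Scn10a* lies at 119608456 to 119719322 and *Scn11a* at 119753759 to 119825456. The 250 bases before the start of *Scn9a*, *Scn7a*, *Scn11a* and *Cacna2d1* are shown because these genes carry the differences described below, *Scn9a* and *Scn7a* in opposite directions between the *Sox10* groups but in the same direction between *Nos1*-only and *Chat*-only cells. The sequences are from RefSeq (GRCm38.p6), 5′ to 3′ on the strand of the gene, with GC boxes (GGGCGG on either strand, a site bound by SP1) in capitals. UMIs near the 3′ end do not show which start a transcript used.
*Scn9a* (minus strand, chr2:66634963-66635212): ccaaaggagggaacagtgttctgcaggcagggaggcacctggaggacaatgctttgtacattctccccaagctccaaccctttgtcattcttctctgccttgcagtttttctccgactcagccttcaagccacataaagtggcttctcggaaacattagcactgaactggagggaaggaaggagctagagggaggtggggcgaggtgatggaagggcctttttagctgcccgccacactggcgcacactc
*Scn7a* (minus strand, chr2:66784911-66785160): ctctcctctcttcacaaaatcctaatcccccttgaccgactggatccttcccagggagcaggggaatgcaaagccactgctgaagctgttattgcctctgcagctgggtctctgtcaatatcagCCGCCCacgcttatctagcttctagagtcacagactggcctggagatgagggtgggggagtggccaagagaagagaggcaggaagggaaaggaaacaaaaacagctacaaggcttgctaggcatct
*Scn11a* (minus strand, chr9:119825457-119825706): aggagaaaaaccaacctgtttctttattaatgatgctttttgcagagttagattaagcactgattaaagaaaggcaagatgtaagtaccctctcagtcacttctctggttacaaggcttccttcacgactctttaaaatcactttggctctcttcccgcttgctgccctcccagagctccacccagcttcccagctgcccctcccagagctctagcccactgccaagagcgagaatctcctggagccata
*Cacna2d1* (plus strand, chr5:15934441-15934690): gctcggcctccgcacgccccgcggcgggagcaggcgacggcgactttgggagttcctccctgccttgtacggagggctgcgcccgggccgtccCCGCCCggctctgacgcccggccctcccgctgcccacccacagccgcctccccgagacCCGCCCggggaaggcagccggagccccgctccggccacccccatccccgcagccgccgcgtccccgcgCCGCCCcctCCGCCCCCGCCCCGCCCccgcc
The *Cacna2d1* sequence held 6 GC boxes, some of them side by side, with a GC content of 82.4%, and the *Scn7a* sequence held 1. The *Scn9a* and *Scn11a* sequences held 0, with GC contents of 54.4% and 48.0% against a median of 52.4% over 32851 promoters of the same length. A GC box was found in 32.7% of all promoters and in 17 of the 43 promoters of the 32 channel genes with an entry. The ETS core CCGGAA, a sequence bound by the family of *Etv1*, was found in 12.0% of all promoters and in 1 of these 43, that of *Hcn4*. An RE1 core (TTCAGCACC, from the site of the repressor REST) was found in 0.301% of all and in 0 of the 43. Both strands were read, and no match says only that these letters are not in this window.

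Depth and purity differed between the mice. Mice 1, 2 and 3 gave 354, 1050 and 656 cells with medians of 3734.5, 9599.5 and 9578.5 UMIs per cell. Mouse 1 stood apart, with 77.6 UMIs per 10000 from 10 smooth muscle genes against 17.4 and 11.8 in mice 2 and 3, and it had only 16 *Chat*-only and 28 *Bnc2*-only cells. In its *Bnc2*-only cells smooth muscle genes reached 167 per 10000. Results are therefore given for all 3 mice and for mice 2 and 3. UMIs of *Ednrb* were present in each library, at 1.82, 2.54 and 1.98 per 10000, and do not show which exons were read. Of the cell barcodes, 2 were found in more than 1 library. No class of cells that should lack neuronal channel genes was analysed here, so the share of cells that free RNA alone makes positive was not measured. Levels are UMIs per 10000, summed over the cells of a mouse and group, as the mean ± SD over 3 mice unless a mouse is named, and a level does not separate more positive cells from more UMIs in each.

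**Figure D1:**
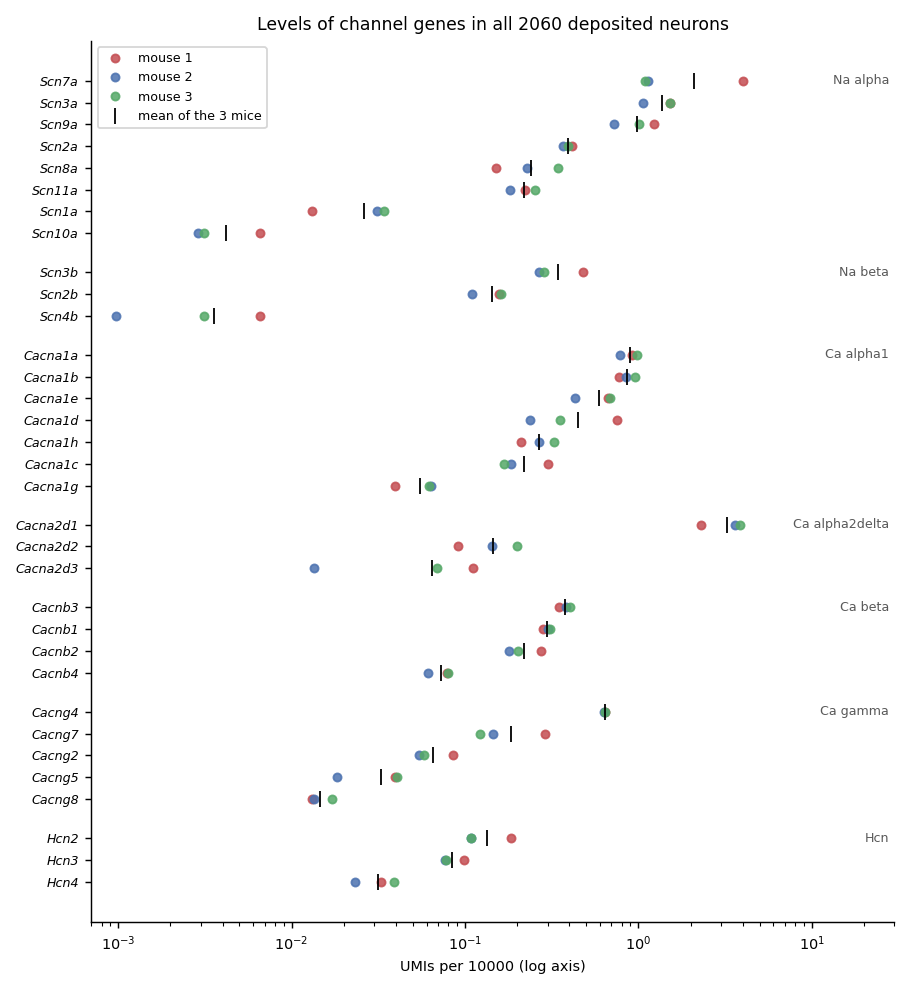
Level of 33 channel genes with a UMI in each mouse, over all 2060 neurons, on a log axis of UMIs per 10000. Points are mice and bars their means, and the 3 points of *Cacng4* lie on each other while mouse 1 stands above mice 2 and 3 in *Scn7a*.

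Sodium channel alpha RNA came mainly from 3 genes. *Scn7a*, which encodes Nax, a sodium-sensing relative known from glia and sensory neurons, had levels of 4.02, 1.14 and 1.09 in mice 1, 2 and 3. Mouse 1 was thus far above the others for this gene. *Scn3a*, a channel of developing neurons, had levels of 1.52, 1.06 and 1.53, with no such split. *Scn9a*, a channel of sensory and autonomic neurons that boosts small depolarizations, had levels of 1.23, 0.723 and 1.01. *Scn2a* (0.391 ± 0.0236), *Scn8a* (0.241 ± 0.0968) and *Scn11a* (0.219 ± 0.0352) were lower, and *Scn2a* lay above the other two in each mouse, while *Scn8a* and *Scn11a* did not keep 1 order. *Scn11a* is a tetrodotoxin-resistant channel of nociceptors and intrinsic enteric sensory neurons with a slow persistent current. *Scn10a*, a resistant channel of nociceptors, gave 6 UMIs in all, *Scn1a* had a level of 0.0261 ± 0.0114, and *Scn4a* of skeletal muscle gave 1 UMI. *Scn11a*, the neighbour of *Scn10a* in the genome, was more than 10 times higher than *Scn10a* in each mouse.

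Among the beta subunits *Scn3b* was at 0.478, 0.266 and 0.284 in mice 1, 2 and 3 and *Scn2b* at 0.157, 0.110 and 0.161. *Scn4b* gave 4 UMIs.

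Among the calcium channel alpha1 genes the P/Q-type gene *Cacna1a* (0.917, 0.787 and 0.986) and the N-type gene *Cacna1b* (0.773, 0.85 and 0.959) were close, and their order differed between mice. The R-type gene *Cacna1e* followed (0.668, 0.433 and 0.688). The L-type gene *Cacna1d* was at 0.753 in mouse 1 but 0.237 and 0.354 in mice 2 and 3, and *Cacna1c*, the L-type gene of smooth muscle and neurons, at 0.301, 0.183 and 0.168. L-type genes gave 28.8% of alpha1 UMIs in mouse 1 and 14.9% and 14.7% in mice 2 and 3. Smooth muscle genes moved in the same way between the mice, and their part in this was not tested. Of the T-type genes, *Cacna1h* (0.267 ± 0.0574) was above *Cacna1g* (0.0551 ± 0.0137), and *Cacna1i* gave 25 UMIs. *Cacna1f* of the retina and *Cacna1s* of skeletal muscle gave 0 UMIs.

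*Cacna2d1*, an alpha2delta subunit and the target of gabapentin, had the highest mean level of any member, with 2.31, 3.59 and 3.87 in mice 1, 2 and 3, although in mouse 1 *Scn7a* was higher. It was found in 55.1%, 83.5% and 80.8% of the cells. *Cacna2d2* (0.0917, 0.143 and 0.200) and *Cacna2d3* (0.111, 0.0135 and 0.0686) were lower, and *Cacna2d4* gave 3 UMIs. Of the beta subunits, which release alpha1 from the endoplasmic reticulum, *Cacnb3* had 0.347, 0.380 and 0.405, *Cacnb1* 0.282, 0.299 and 0.310 and *Cacnb2* 0.275, 0.180 and 0.201, above *Cacnb4* (0.0730 ± 0.0106). This order held in each mouse, although in mouse 1 *Cacnb1* and *Cacnb2* were nearly level.

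*Cacng4*, a gamma subunit that also serves as an auxiliary subunit of AMPA receptors, had levels of 0.642, 0.636 and 0.641, the least spread relative to its mean among the members with a mean above 0.1. *Cacng7* (0.288, 0.146 and 0.122) and *Cacng2* (0.0852, 0.0541 and 0.0577) followed. *Cacng5* (0.0327 ± 0.0125) and *Cacng8* (0.0146 ± 0.00223) were low, *Cacng3* gave 16 UMIs, *Cacng1* of skeletal muscle 6, and *Cacng6* 0. A count of 0 allows up to 3 UMIs.

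HCN channel RNA was sparse, with 581 UMIs over 448 cells. Levels in mice 1, 2 and 3 were 0.183, 0.108 and 0.108 for *Hcn2* and 0.0983, 0.0763 and 0.0780 for *Hcn3*, with *Hcn4* at 0.0316 ± 0.00797. *Hcn2* lay above *Hcn3*, and both above *Hcn4*, in each mouse. A neuron had UMIs of a median of 6 channel genes, 4 in mouse 1, 6 in mouse 2 and 7 in mouse 3, and the most in any cell was 21. Mouse 1 was the shallowest library, and the part of depth was not tested.

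The first question was how channel genes differ between neurons of the *Bnc2* and *Etv1* classes and between cholinergic and nitrergic neurons. *Cacna1e* was the channel gene that differed most in both. In *Bnc2*-only cells its level was 0.842, 1.05 and 1.26 in mice 1, 2 and 3, and in *Etv1*-only cells 0.361, 0.195 and 0.370. All 3 *Bnc2*-only values were above all 3 *Etv1*-only values. The log2 fold was 1.51 (SE 0.22), with an adjusted p of 0.10 in limma over all 3 mice and of 2.78e-10 in mice 2 and 3 alone (log2 fold 1.75). In *Chat*-only cells *Cacna1e* was at 0.605, 1.03 and 1.51, and in *Nos1*-only cells at 0.396, 0.201 and 0.407. These groups also did not overlap, and the log2 fold of *Nos1*-only over *Chat*-only was -1.36 (SE 0.31, limma adjusted p 0.205), or -1.79 in mice 2 and 3 (limma adjusted p 2.98e-07). The value in *Chat*-only cells of mouse 1 rests on 4 UMIs in 16 cells.

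**Figure D2:**
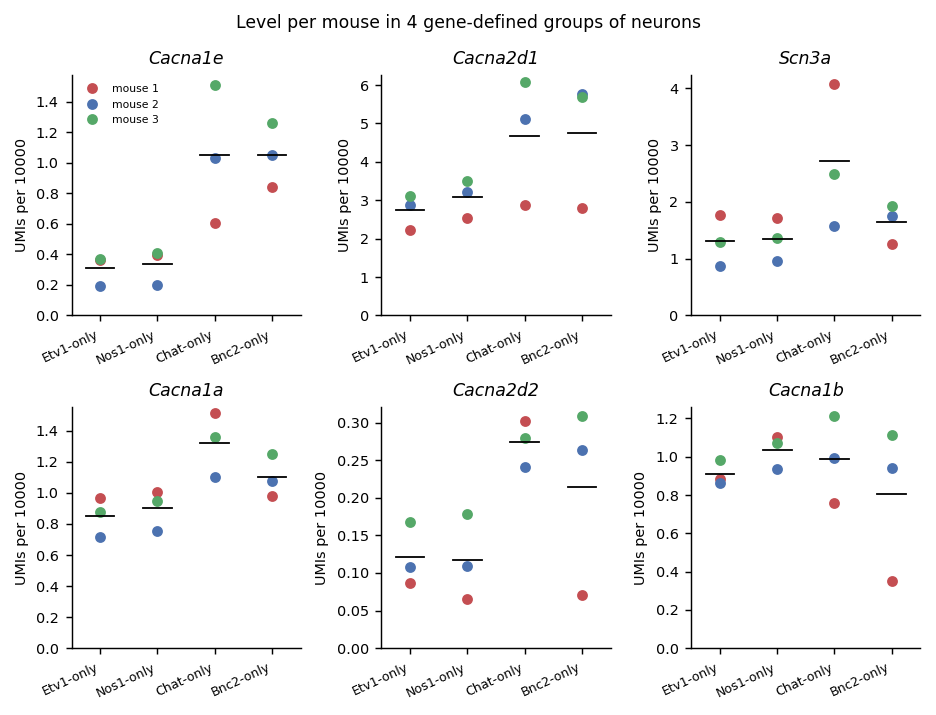
Level in UMIs per 10000 of 6 channel genes in *Etv1*-only, *Nos1*-only, *Chat*-only and *Bnc2*-only neurons, with a point per mouse and a bar at the mean of the 3 mice. *Cacna1e* is higher in each mouse in *Chat*-only and *Bnc2*-only cells, and the *Bnc2*-only point of mouse 1 lies below those of mice 2 and 3 for all 6 genes.

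Within the calcium channel alpha1 family the R type took a larger share of UMIs in the same groups. It was 25.5%, 28% and 26.8% in *Bnc2*-only cells of mice 1, 2 and 3, against 9.65%, 7.51% and 11.8% in *Etv1*-only cells. It was 16.7%, 27.4% and 27.4% in *Chat*-only cells, against 9.72%, 7.31% and 12.4% in *Nos1*-only cells. These shares, chosen after the values were seen, are relative to the other alpha1 genes and were not tested. The L-type share was 21.3%, 7.90% and 11.0% in *Bnc2*-only cells against 34.4%, 18.4% and 18.5% in *Etv1*-only cells, lower in each mouse although mouse 1 was higher in both groups. The N-type share was also lower in each mouse, at 10.6%, 25.1% and 23.8% against 23.6%, 33.2% and 31.2%. P/Q-type shares were nearly level, at 28.3% ± 1.61 and 27.1% ± 1.08.

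**Figure D3:**
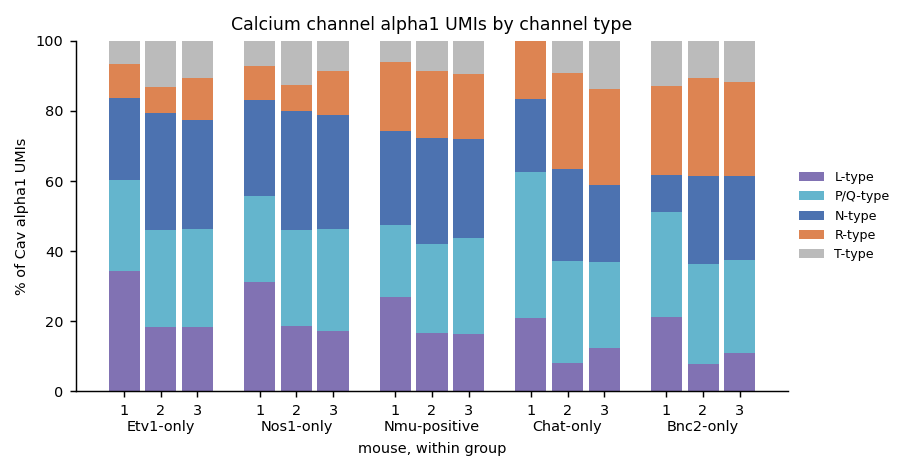
Share of calcium channel alpha1 UMIs given by L-, P/Q-, N-, R- and T-type genes, in percent, with a bar per mouse in 5 groups of neurons. The R-type share is between 7.31% and 12.4% in the *Etv1*-only and *Nos1*-only bars and between 16.7% and 28% in the *Chat*-only and *Bnc2*-only bars.

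Over all 3 mice, limma called 0 of 23 tested channel genes between *Bnc2*-only and *Etv1*-only cells (0.261% of all 9583 genes), and 3 of 23 had an unadjusted p under 0.05 (12.3% of all genes). Those were *Cacna1e*, *Cacna1h* and *Cacna2d1*. *Cacna1h*, a T-type gene, was at 0.421, 0.383 and 0.541 in *Bnc2*-only cells against 0.173, 0.232 and 0.209 in *Etv1*-only cells, without overlap (log2 fold 0.84, SE 0.18, adjusted p 0.174). Its *Bnc2*-only value in mouse 1 comes from only 28 cells. *Cacna2d1* was at 2.81, 5.77 and 5.70 against 2.22, 2.87 and 3.12 (log2 fold 0.72, SE 0.17, adjusted p 0.207), and the *Bnc2*-only value of mouse 1 lay within the *Etv1*-only range. In mice 2 and 3, 8 of 23 members were higher in *Bnc2*-only cells (14.4% of all genes higher) and 0 lower. Among these were, by size, *Cacna1e*, *Cacna2d1*, *Cacna1h*, *Scn3a*, *Cacna2d2*, *Scn3b* and *Cacna1a*, with log2 folds from 1.75 to 0.49. *Scn3a* in *Bnc2*-only cells was at 1.75 and 1.93 in mice 2 and 3 against 0.873 and 1.30 in *Etv1*-only cells, but at 1.26 against 1.78 in mouse 1, the opposite order. Without the 121 cells richest in smooth muscle genes, *Cacna1e* had a log2 fold of 1.55 over the 3 mice (limma adjusted p 0.0617). Glial marker genes were lower in *Bnc2*-only than in *Etv1*-only cells in each mouse (16.3, 7.50 and 5.70 against 16.9, 14.4 and 12.6 per 10000, 7 of 10 genes lower in all mice), and 38.9% against 57.4% of the cells were *Sox10*-positive. The mitochondrial share of UMIs was higher in each mouse (3.57%, 3.95% and 4.07% against 2.84%, 3.06% and 3.40%). Neuronal marker genes summed to 40.8, 64.1 and 63.4 against 75.9, 63.6 and 59.0, lower in mouse 1 but not in mice 2 and 3. Fibroblast genes summed to 24.8, 2.59 and 0.966 against 10.3, 3.27 and 2.71, higher in mouse 1 and lower in mice 2 and 3. The parts of these in the channel results were not tested. The median log2 fold was 0.21 over the tested members, 0.07 over the 22 with a mean of at least 0.1 in both groups and 0.00 over all genes.

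Between *Nos1*-only and *Chat*-only cells, limma called 0 of 24 tested members over the 3 mice (0.0316% of all 9480 genes), and 9 of 24 had an unadjusted p under 0.05 (13.6% of all genes). All 9 had the lower level in *Nos1*-only cells in each mouse. *Scn3a* was at 1.72, 0.954 and 1.36 in *Nos1*-only cells and 4.08, 1.57 and 2.48 in *Chat*-only cells, lower in each mouse although the groups overlap between mice (log2 fold -0.90, SE 0.15, adjusted p 0.142). *Cacna1a* was at 1.01, 0.753 and 0.948 against 1.51, 1.10 and 1.36, with no overlap (log2 fold -0.50, SE 0.13, adjusted p 0.240). *Cacna2d2* (0.0660, 0.109 and 0.178 against 0.302, 0.242 and 0.279) did not overlap either, although its *Chat*-only value in mouse 1 comes from only 16 cells. *Scn9a* was at 0.973, 0.744 and 0.945 against 1.66, 0.919 and 1.68. *Cacna1e*, *Cacna2d1*, *Scn7a* and *Scn3b* also had such a p. In mice 2 and 3, 10 of 24 members were lower in *Nos1*-only cells (12.2% of all genes lower) and 0 higher, among them *Cacna1e*, *Cacna1h*, *Scn3a*, *Cacna2d1*, *Cacna2d2*, *Scn3b*, *Scn9a*, *Cacna1a* and *Scn7a*. *Cacna1h* rests on this pair: it was at 0.228 and 0.178 against 0.322 and 0.729 in mice 2 and 3 but at 0.214 against 0 UMIs in mouse 1. *Cacna1b* did not separate the groups, at 1.10, 0.934 and 1.07 in *Nos1*-only cells and 0.756, 0.993 and 1.21 in *Chat*-only cells (log2 fold 0.08, 95% interval -0.39 to 0.55). *Nos1*-only cells also had more smooth muscle RNA than *Chat*-only cells in each mouse (34.7, 21.1 and 13.5 against 20.7, 7.33 and 8.66 per 10000, 9 of 10 genes higher in all mice). Glial genes (13.1, 14.2 and 11.6 against 11.5, 8.65 and 5.67, 6 of 10 genes higher in all mice) and fibroblast genes (10.4, 3.77 and 2.43 against 5.59, 2.05 and 1.97, 4 of 6) were also higher in each mouse. The 3 genes Kit, Ano1 and *Etv1*, markers of interstitial cells of Cajal, summed to 9.14, 6.46 and 5.87 against 1.66, 0.785 and 0.846, with 1 of 3 higher in all mice. Kit and Ano1 alone, without *Etv1*, which is also a gene of neurons, summed to 0.0660, 0.0416 and 0.130 against 0.151, 0.0403 and 0.144. The mitochondrial share was lower in each mouse (2.59%, 2.96% and 3.26% against 3.04%, 3.84% and 4.60%), and the parts of all of these were not tested. The median log2 fold was -0.38 over the members and -0.02 over all genes.

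*Nmu*-positive neurons were compared with all other neurons, and 2 sodium channel genes known from sensory neurons had the largest log2 folds among the tested members on the scale with 0.1 added. Without that addition the ratio of *Cacna2d3*, a low gene described below, was larger than that of *Scn9a* in each mouse. It was also larger than that of *Scn11a* in mice 1 and 2. *Scn11a* was at 0.911, 0.570 and 0.828 UMIs per 10000 in *Nmu*-positive cells of mice 1, 2 and 3 and at 0.140, 0.149 and 0.158 in the other cells. The lowest *Nmu*-positive value was thus more than 3 times the highest of the others. The log2 fold was 1.78 (SE 0.21, higher in 3 of 3 mice), with a limma adjusted p of 0.0857 over all genes. It was called with any 1 mouse left out, with log2 folds of 1.64 without mouse 1, 1.96 without mouse 2 and 1.75 without mouse 3 (limma adjusted p 0.000177, 0.0101 and 0.0113). In these fits of 2 mice more of all genes were called too, at 1.04%, 0.606% and 0.592% against 0.0104% over 3 mice. The *Nmu*-positive values rest on 15, 47 and 75 UMIs. A UMI of *Scn11a* was found in 29.0%, 23.8% and 30.3% of *Nmu*-positive cells against 5.57%, 11.0% and 11.1% of the others. With each cell thinned to 3000 UMIs the shares were 20.7%, 14.1% and 12.0% against 4.05%, 4.69% and 5.11%, over 29, 78 and 83 *Nmu*-positive and 247, 917 and 528 other cells. Median depths were 5119, 10416.5 and 9770 UMIs in *Nmu*-positive cells against 3657, 9568 and 9528 in the others.

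*Scn9a* was at 4.19, 1.21 and 2.05 in *Nmu*-positive cells and at 0.867, 0.681 and 0.843 in the others, again without overlap. The log2 fold was 1.36 (SE 0.27, limma adjusted p 0.324), or 0.97 without mouse 1 (limma adjusted p 0.00298), where the difference was smaller. Without mouse 2 it was 1.67 and without mouse 3 it was 1.45 (limma adjusted p 0.0211 and 0.0535). *Scn9a* and *Scn11a* lie on different chromosomes, and neither promoter shown above holds a GC box, as is so for most promoters.

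**Figure D4:**
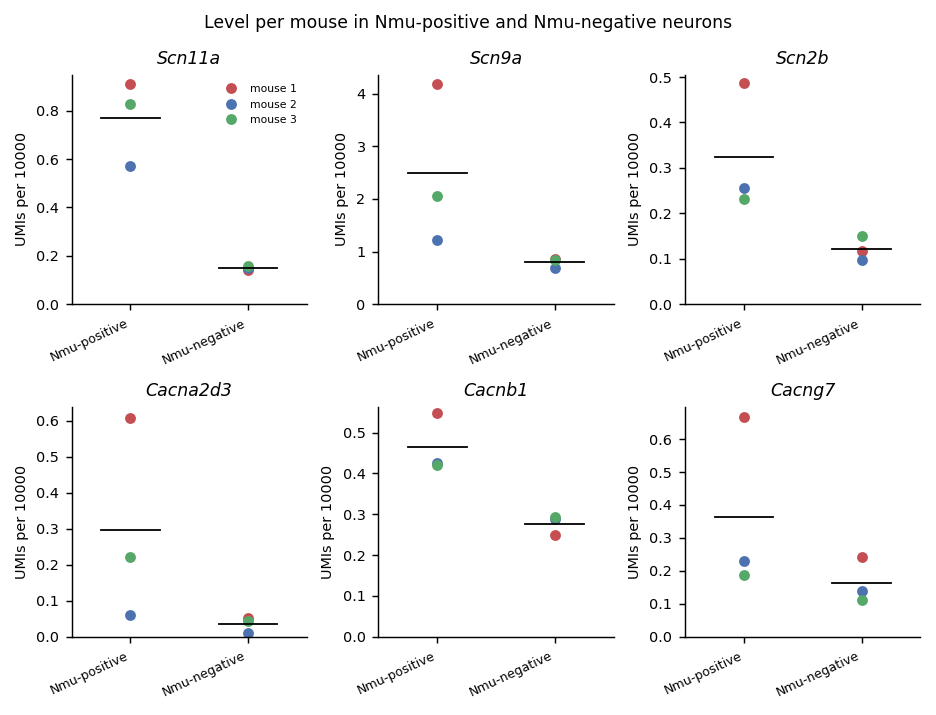
Level in UMIs per 10000 of 6 channel genes in *Nmu*-positive and *Nmu*-negative neurons, with a point per mouse and a bar at the mean. The 3 *Nmu*-positive points of *Scn11a* lie between 0.570 and 0.911 and the 3 others between 0.140 and 0.158, while the points of *Cacng7* overlap between the groups.

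Over all 3 mice limma called 0 of 25 tested members (0.0104% of all 9580 genes), and 8 of 25 had an unadjusted p under 0.05 (7.18% of all genes). Of these 8, 2 had a mean under 0.1 in *Nmu*-negative cells and entered the test only through the level in *Nmu*-positive cells, so that they had to differ. Among the 23 members with a mean of at least 0.1 in both groups there were 6 (6.49% of all such genes), *Scn11a* and *Scn9a* among them. *Cacna2d3* was one of the 2 and is given as a description, at 0.608, 0.0607 and 0.221 against 0.0514, 0.00944 and 0.0436, where the value in mouse 2 rests on 5 UMIs. *Scn2b* was at 0.486, 0.255 and 0.232 against 0.118, 0.0975 and 0.149, and *Cacnb1* at 0.547, 0.425 and 0.420 against 0.25, 0.288 and 0.292, both without overlap. *Cacng7* was at 0.668, 0.230 and 0.188 against 0.242, 0.138 and 0.111, higher in each mouse although the groups overlap between mice. In mice 2 and 3 the members called higher were *Scn11a* and *Scn9a*, 2 of 24 (0.953% of all genes higher). The summed level of the 10 sodium channel alpha genes was 11.4, 5.22 and 6.99 in *Nmu*-positive cells and 7.34, 3.82 and 4.63 in the others. Neuronal marker genes were also higher in *Nmu*-positive cells in each mouse (122, 66.7 and 70.3 against 61.5, 61.8 and 57.4 per 10000 over 10 genes, with 5 of them higher in all mice). Glial genes were lower in each mouse (4.5, 11.9 and 10.8 against 16.9, 13.5 and 11.8, 4 of 10 genes lower in all mice), and so were fibroblast genes (3.34, 2.54 and 2.37 against 16.1, 3.36 and 2.54, 3 of 6). The 3 genes Kit, Ano1 and *Etv1*, markers of interstitial cells of Cajal, summed to 2.13, 3.13 and 3.04 against 5.10, 4.22 and 3.65. Their sum was thus lower in each mouse, with 1 of 3 genes higher in all mice and 1 lower. Kit and Ano1 alone summed to 1.46, 0.194 and 0.519 against 0.0955, 0.0357 and 0.0853, higher in each mouse. Smooth muscle genes were lower in mouse 1 but higher in mice 2 and 3 (32.1, 22.3 and 18.3 against 83.1, 16.9 and 10.8). So was the mitochondrial share of UMIs (2.26%, 3.99% and 3.86% against 3.03%, 3.18% and 3.55%). Endothelial genes were sparse but higher in each mouse (0.122, 0.0970 and 0.0994 against 0.0588, 0.0430 and 0.0472). The parts of these lists and of the mitochondrial share were not tested. *Cacna2d1* did not separate the groups, with a log2 fold of -0.07 (95% interval -0.46 to 0.32). The median log2 fold was 0.22 over the tested members, 0.10 over those 23 and -0.06 over all genes.

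*Sox10*-positive neurons had more *Scn7a* RNA and less RNA of 10 other channel genes than *Sox10*-negative neurons. *Scn7a* was at 5.88, 1.45 and 1.37 in *Sox10*-positive cells of mice 1, 2 and 3 and at 2.62, 0.694 and 0.674 in *Sox10*-negative cells. In each mouse it was about doubled, although mouse 1 was far above the others in both groups (log2 fold 1.01, SE 0.10, limma adjusted p 0.000944). Its neighbour *Scn9a* was lower, at 0.701, 0.551 and 0.762 against 1.62, 0.967 and 1.39, without overlap (log2 fold -0.87, SE 0.11, limma adjusted p 0.00375). *Cacna1e* was at 0.335, 0.30 and 0.525 against 0.919, 0.620 and 0.931 (log2 fold -0.93, SE 0.13, limma adjusted p 0.00486). *Scn3a* was at 1.11, 0.838 and 1.30 against 1.83, 1.38 and 1.87 (log2 fold -0.61, SE 0.10, limma adjusted p 0.00888). These 4 genes held the same direction in 3 of 3 mice.

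In all, 11 of 24 tested members were called (7.49% of all 9627 genes), 1 higher (4.23% of all genes) and 10 lower (3.26%). At an unadjusted p under 0.05 there were 18 of 24 (23.6% of all genes), or 17 of the 22 with a mean of at least 0.1 in both groups (22.6% of all such genes). *Scn11a*, *Cacna1a*, *Cacna1b*, *Cacna1c*, *Cacna1d* and *Cacna2d1* were also lower, with log2 folds from -0.64 (*Cacna1d*) to -0.46 (*Cacna1a*) and limma adjusted p from 0.0208 to 0.0310. *Cacna1b* was at 0.549, 0.735 and 0.801 in *Sox10*-positive cells and 0.942, 1.01 and 1.20 in the others. *Cacna2d1* was at 2.06, 2.99 and 2.93 against 2.5, 4.44 and 5.27. *Cacng4* was not called, with the higher level in *Sox10*-positive cells in each mouse (log2 fold 0.16, 95% interval -0.10 to 0.42), and neither was *Hcn2* (95% interval -0.69 to 0.07). In mice 2 and 3 alone 17 of 23 members were called, 16 lower (14.5% of all genes) and 1 higher (10.4%). Without mouse 2 there were 5 called (1 higher, with 4.61% of all genes called) and without mouse 3 there were 8 (8.08% of all genes). Without the mouse as a block 0 were called, of the members and of all genes, and 11 members had an unadjusted p under 0.05. The median log2 fold was -0.45 over the members and -0.03 over all genes.

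**Figure D5:**
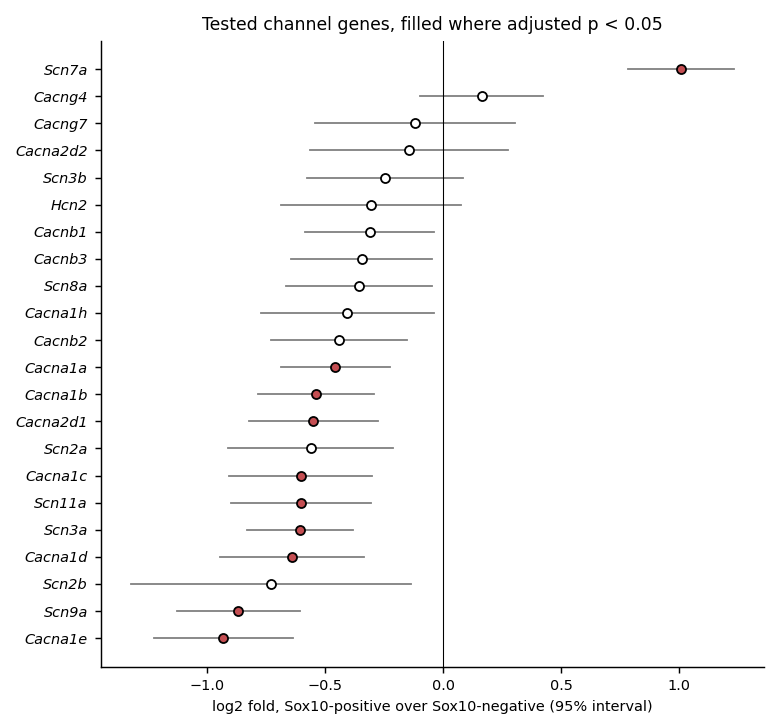
Log2 fold of 22 tested channel genes in *Sox10*-positive over *Sox10*-negative neurons, with 95% intervals from limma over 3 mice. Filled points passed an adjusted p of 0.05: *Scn7a* at 1.01 and 9 genes between -0.93 and -0.46.

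The *Sox10* groups also differed in other genes. The 9 glial markers other than *Sox10* summed to 21.6, 16.7 and 14.6 per 10000 in *Sox10*-positive cells against 7.66, 5.50 and 3.85, and all 9 were higher in all mice. The 10 neuronal markers summed to 53.4, 56.0 and 52.9 against 79.1, 71.0 and 68.7, with 9 of them lower in all mice. *Sox10*-positive cells were deeper in mice 2 and 3 but not in mouse 1 (medians of 3709, 10720.5 and 10072.5 UMIs in mice 1, 2 and 3 against 3757.5, 8731.5 and 8560.5). Their mitochondrial share was lower in each mouse (2.66%, 2.93% and 3.24% against 3.17%, 3.67% and 4.13%). Of the *Sox10*-positive cells, 11.9% were *Bnc2*-only and 9.65% *Chat*-only, against 20.9% and 17.7% of the *Sox10*-negative cells. Smooth muscle genes were lower in mice 1 and 2 but higher in mouse 3 (49.2, 16.4 and 13.7 against 98.9, 18.7 and 9.01). Fibroblast genes were lower in mouse 1 but higher in mice 2 and 3 (13.4, 3.93 and 3.28 against 15.8, 2.41 and 1.37). The parts of neuron class, glial, smooth muscle and fibroblast RNA, neuronal RNA content, depth and mitochondrial share in the channel results were not tested. Thinned to 3000 UMIs per cell, *Scn7a*, *Scn9a* and *Cacna1e* kept their direction and call (log2 folds 0.89, -0.76 and -0.86, limma adjusted p 0.00231, 0.0195 and 0.0110), and 5 of 24 members were called (4.39% of all genes). The median log2 fold over the tested members was then -0.51, against -0.45 without thinning.

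Genes of proteins that bind or regulate these channels, and genes of the separate sodium leak channel complex, were read from a list of 26, called partner genes here. The highest were *Ank2*, an ankyrin that anchors membrane proteins (9.98, 10.2 and 9.50 in mice 1, 2 and 3), *Fgf13*, which binds the tail of sodium channels (4.29, 3.42 and 4.0), and *Ank3*, the ankyrin of the axon initial segment (2.46, 1.5 and 1.63). Between *Sox10*-positive and *Sox10*-negative cells 18 of them were tested, and 1 was higher (4.23% of all genes) and 7 lower (3.26%) by limma at an adjusted p under 0.05. The higher was *Rrad*, a small GTPase that inhibits calcium channels, at 0.518, 0.358 and 0.302 against 0.149, 0.196 and 0.113 (log2 fold 0.95, limma adjusted p 0.00890). *Fgf13* was lower, at 2.85, 2.98 and 3.17 against 5.37, 4.04 and 5.24 (log2 fold -0.68, limma adjusted p 0.00975). *Unc79* and *Unc80*, of the sodium leak channel complex, and *Rims2*, a scaffold of presynaptic calcium channels, had log2 folds of -0.61, -0.52 and -0.58. *Ank2*, *Nfasc* and *Fam155a* were the other 3.

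In the other 3 comparisons limma called 0 of the partner genes over 3 mice. At an unadjusted p under 0.05 there were 6 of 18 tested for *Bnc2*-only against *Etv1*-only (12.3% of all genes), 4 of 22 for *Nos1*-only against *Chat*-only (13.6% of all genes, which is near the share of the partners) and 4 of 19 for *Nmu* (7.18% of all genes). In each of the last 2 comparisons, 1 of the 4 entered the test only through its level in 1 group. Those named here were chosen after their values were seen. *Fam155a*, a subunit of the sodium leak channel NALCN, was at 0.210, 0.423 and 0.375 in *Bnc2*-only cells and 0.997, 1.18 and 1.03 in *Etv1*-only cells, without overlap (log2 fold -1.45, SE 0.18, limma adjusted p 0.0717). *Ank2* was at 4.0, 6.66 and 7.84 against 13.5, 12.8 and 12.2. *Ank2* was also higher in *Nos1*-only cells, at 16.1, 14 and 13.2, than in *Chat*-only cells, at 6.80, 6.62 and 9.15 (log2 fold 0.94, SE 0.17, limma adjusted p 0.148). *Fgf13* was higher in *Chat*-only cells in each mouse, at 9.22, 4.77 and 5.40 against 3.78, 3.34 and 3.74, and in *Nmu*-positive cells, at 12.4, 4.57 and 5.47 against 3.30, 3.32 and 3.76, with mouse 1 far above mice 2 and 3 in both. *Unc80*, which acts in the same complex as *Fam155a*, was at 0.772, 1.51 and 1.60 in *Bnc2*-only against 0.953, 0.806 and 0.779 in *Etv1*-only cells, with mouse 1 in the opposite order. Its log2 fold was 0.50 over the 3 mice (limma adjusted p 0.517) and 0.89 in mice 2 and 3 alone, where *Fam155a* had -1.27 (limma adjusted p 3.17e-07 and 8.32e-09).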

How the data were processed

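The authors sequenced 10x v3.1 libraries of 3 mice, aligned and counted with Cell Ranger on mm10 (version not given in the sources used here), filtered and merged the cells, removed genes they regarded as possible confounders and deposited the neurons as natural log values, the ln of 1 plus the UMIs of a gene per 10000 of its cell. Whole UMIs were recovered by taking the smallest value above 0 in a cell as 1 UMI, which made 100% of 6435281 values whole within 1e-06. Totals include genes not listed (median 12.7% of the UMIs of a cell). UMIs were summed per mouse and group and tested on log2(UMIs per 10000 + 0.1) with limma 3.58.1 in R 4.3.3 (lmFit and eBayes with trend, two-sided, Benjamini-Hochberg over all genes with a mean of at least 0.1). Folds on this scale understate changes of low genes. The mouse was a block, because both groups come from the same animals. The gate genes were left out. In mice 2 and 3 alone each gene has 1 residual degree of freedom and the spread is pooled over genes.

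The steps were tested on simulated data. Channel genes were named if called in a comparison or among the 3 highest of their family, and partners if called (up to 5 per comparison) or among the 3 highest. Others with values, *Scn2a*, *Scn8a* and *Cacna1h* among them, were chosen after their values were seen. Members, groups and lists were chosen with earlier results of these data known. Positions are from GENCODE M21 (GRCm38). Of the 44 genes, 12 had no promoter entry in the RefSeq table used. Doublets were not called. A few channel genes are counted among the members but not reported here by name. With the mouse as a block, p-values rest on how the difference between groups varied between animals of 1 genotype. These were 3 animals unless fewer are named, and the spread of each gene was drawn toward that of the other genes.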

Additional observations from a re-analysis of the deposited data

How the results depend on the processing

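Depth limits the low genes, and mouse 1 has few *Chat*-only and *Bnc2*-only cells. With samples weighted by total UMIs, 9, 8, 2 and 17 were called for *Nos1*-only against *Chat*-only, *Bnc2*-only against *Etv1*-only, *Nmu* and *Sox10*, in place of 0, 0, 0 and 11, while 20.5%, 18.0%, 0.887% and 25.2% of all genes were called. With positive cells set at 2 UMIs, 7, 9 and 8 were called in the first 3 (22.8%, 27.9% and 5.31% of all genes). The first 2 of these fits held mice 2 and 3 only, since fewer than 10 cells were left in a group of mouse 1. Leaving out cells with 5 or more smooth muscle genes (955 cells) and *Sox10*-positive cells gave 2 for *Bnc2*-only against *Etv1*-only (mice 2 and 3 only) and 2 for *Nmu* (7.79% and 1.20% of all genes). For *Sox10*, no filter on low genes gave 2 (0.688% of all genes), thinning to 3000 UMIs gave 5 (4.39%), and no replicate block gave 0. Leaving out a mouse gave 0 to 10, 0 to 8, 1 to 2 and 5 to 17, with 0.148% to 22.2%, 0.292% to 27.7%, 0.592% to 1.04% and 4.61% to 24.9% of all genes called. The highest counts and shares of the 4 were without mouse 1 (for *Nmu*, 2 were also called without mouse 2). Over all settings the number of all genes called ran from 0 to 2138, 3 to 2593, 0 to 509 and 0 to 2429, against 3, 25, 1 and 721. In the other 3 comparisons, removing the block left 0 channel genes called. Removing the 121 cells richest in smooth muscle genes, chosen after seeing the data, left 0, 0, 0 and 8 (0.0316%, 0.567%, 0% and 5.63% of all genes). Of 481 log2 folds recomputed, 354 kept direction and call, 78 became called, 45 lost the call and 4 reversed. *Cacna1h* in *Nos1*-only over *Chat*-only cells reversed to 0.39 with a pseudocount of 0.02 and ran from -0.97 to 0.64 with a mouse left out (0.038 without mouse 2). *Cacna2d2* in *Sox10*-positive cells ran from -0.42 to 0.032 with a mouse left out. Of 264 shares of positive cells recomputed, 72 moved by more than the SD between mice. The causes were not tested.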
